A study of Mus musculus with 2 samples.

Results

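The genes described here encode subunits of the mitochondrial respiratory chain and of ATP synthase. They were chosen by gene symbol alone, as every measured feature named as a mitochondrial-genome mRNA (mt-Nd, mt-Co, mt-Atp or mt-Cytb) or as Nduf, Uqcr, Sdh or Atp5, with pseudogene names left out. This gave 80 members among 31253 features. Of these, 13 were mRNAs of the mitochondrial genome, with 7 for complex I, 1 for complex III, 3 for complex IV and 2 for complex V. The other 67 were nuclear genes, with 37 for complex I, 4 for complex II, 8 for complex III and 18 for complex V. Every Nduf gene was counted under complex I by its name, also Ndufa4 and Ndufa4l2, which are described below. The nuclear Cox genes of complex IV carry other names and were read as a separate list. Every member had at least 1 UMI (unique molecular identifier, one counted mRNA molecule) in the data.

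Respiratory complexes I to IV pass electrons from nutrients to oxygen. Complexes I, III and IV also pump protons across the inner mitochondrial membrane, and complex V uses that gradient to make ATP. Complexes I, III, IV and V are mosaics, with core proteins translated inside the mitochondrion from its own genome and the remaining subunits imported after synthesis from nuclear genes. Complex II is encoded by nuclear genes alone. The mitochondrial genome is transcribed as long precursors that are cut into single mRNAs, whereas each nuclear subunit has its own promoter. Enamel-secreting ameloblasts and bone-resorbing osteoclasts are known for abundant mitochondria.

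The cells came from first molar germs of the lower jaw of newborn mice of the C57black/B6 background, dissociated with enzymes and put through a dead cell removal step before capture on the BD Rhapsody microwell system. Control mice were Edarfl/fl, with loxP sites in both copies of Edar, the epithelial receptor for ectodysplasin. Mice of the other group, called the deletion group here, were K14cre;Edarfl/fl, with the same floxed alleles and a Cre transgene driven by the keratin 14 promoter of epithelium. Each genotype was 1 library, so genotype and library cannot be told apart, no replicate check exists and no p-value was computed. All intervals are at 95% and cover counting error only. How many germs each library pooled is not stated.

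The control library gave 13255 kept cells with a median of 4444 UMIs, and the deletion library 15244 cells with a median of 3329. Cells fell into 9 named classes, clustered without the members, and the epithelium-like and mesenchyme-like classes are the main comparison. Edar stood at 34.6 CPM (360 UMIs) in control and 21.1 CPM (145 UMIs) in deletion epithelium-like cells, where CPM is the usual scaling of UMI counts to the total of the class. Counts from exons outside the floxed part, which the labels do not name, need not fall, so this checks the labels only in part. Several features moved with the library beside the members. The share of immediate early genes, which dissociation can induce, was 0.309% and 0.493% of epithelium-like UMIs and 1.04% and 1.42% of mesenchyme-like UMIs. Cells with Xist and no Y-linked UMI were 17.0% and 46.7% of epithelium-like cells and 22.1% and 32.5% of mesenchyme-like cells. Of marker lists of 12 other cell types, that of mesenchyme had the highest level in epithelium-like cells, 2324 and 2382 CPM, against 75234 and 47829 CPM in the mesenchyme-like class. The endothelium, macrophage, neutrophil, lymphocyte and glia lists each stood at 61.8 CPM or less there, with Fcgr1 at 0 in both libraries, while the neuron list had 185 and 192 CPM and the mural list 128 and 98.1 CPM. The part of these features in the results below was not tested.

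Several sequences show the gene layout behind the counts. In the mitochondrial genome, mt-Atp8 and mt-Atp6 share their ends on 1 RNA, at chrM:7927-7969 of mm10, plus strand, with the start codon of mt-Atp6 in capitals.
mt-Atp8/mt-Atp6 overlap: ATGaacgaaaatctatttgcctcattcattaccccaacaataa
The 43 shared bases and a further overlap of 7 bases between mt-Nd4l and mt-Nd4 mean that the split of reads within these pairs depends on the counting. Of the 13 mitochondrial members, mt-Nd6 alone lies on the minus strand. For 55 of 66 nuclear member symbols a promoter was found, 250 bases before to 50 after the start (RefSeq, GRCm38.p6). The letters GCGCA, 1 base of any kind and then GCGC, a core of the NRF1 motif, were found on either strand in 16 of the 55 (29.1%), against 5.19% of 27025 genes. CCGGAAG, an ETS core, was found on either strand in 14 (25.5%) against 9.93%, and AAGATGGCG, a YY1 core, in 7 (12.7%) against 1.64%. TATAAA on the gene strand was found in 2 (3.64%) against 9.77%. These matches are descriptions of letters and not evidence of binding. The promoters of 4 members that recur in the results are shown, with NRF1 and ETS matches in capitals.
Sdhd, chr9:50603800-50604099, minus strand, NRF1 then ETS: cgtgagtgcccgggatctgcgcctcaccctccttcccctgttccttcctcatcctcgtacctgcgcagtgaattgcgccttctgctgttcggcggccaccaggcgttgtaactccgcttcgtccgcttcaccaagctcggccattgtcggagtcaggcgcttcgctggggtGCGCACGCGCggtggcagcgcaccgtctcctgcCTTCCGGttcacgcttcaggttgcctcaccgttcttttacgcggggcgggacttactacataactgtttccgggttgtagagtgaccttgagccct
Sdhb, chr4:140961021-140961320, plus strand, ETS: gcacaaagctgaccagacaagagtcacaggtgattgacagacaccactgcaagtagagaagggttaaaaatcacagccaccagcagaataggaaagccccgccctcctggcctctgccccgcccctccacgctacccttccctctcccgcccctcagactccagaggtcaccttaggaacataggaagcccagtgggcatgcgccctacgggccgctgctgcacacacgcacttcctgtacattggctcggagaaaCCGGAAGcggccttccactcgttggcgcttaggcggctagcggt
Atp5g3, chr2:73911277-73911576, minus strand, NRF1: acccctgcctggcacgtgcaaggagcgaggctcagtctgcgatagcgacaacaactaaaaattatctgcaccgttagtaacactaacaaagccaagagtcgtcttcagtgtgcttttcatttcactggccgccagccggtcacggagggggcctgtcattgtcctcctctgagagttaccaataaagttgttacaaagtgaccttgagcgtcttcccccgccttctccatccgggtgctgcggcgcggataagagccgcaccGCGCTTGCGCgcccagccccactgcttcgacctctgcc
Ndufa4, chr6:11907401-11907700, minus strand, no match: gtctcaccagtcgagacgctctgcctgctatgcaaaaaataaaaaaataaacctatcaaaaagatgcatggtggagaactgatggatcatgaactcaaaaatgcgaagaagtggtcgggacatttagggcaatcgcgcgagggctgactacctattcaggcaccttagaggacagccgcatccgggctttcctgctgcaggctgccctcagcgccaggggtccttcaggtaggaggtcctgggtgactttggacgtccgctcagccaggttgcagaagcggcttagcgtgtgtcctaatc

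The first question was how the members of each genome were distributed over the cell classes. Mitochondrial-genome mRNAs took a larger part of all UMIs than the 67 nuclear members in every class. In the order control then deletion, they were 10.9% and 11.1% of UMIs in osteoclast-like cells, and 1.91% and 2.80% in neutrophil-like cells. These were the highest and the lowest of the 9 classes in both libraries. Endothelium-like cells had 9.36% and 9.58%, glia-like cells 9.09% and 8.67%, and mural-like cells, the contractile cells around vessels, 8.87% and 8.50%. Mesenchyme-like cells had 7.95% and 7.37%, epithelium-like cells 7.40% and 8.71%, lymphocyte-like cells 7.47% and 6.96%, and macrophage-like cells 6.06% and 5.97%. Epithelium-like cells thus stood below mesenchyme-like cells in the control and above them in the deletion library.

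Nuclear members gave another order. Osteoclast-like cells led again, with 2.93% and 2.81% of UMIs, and neutrophil-like cells were last with 0.553% and 0.682%. Epithelium-like cells came next to osteoclast-like cells in both libraries, at 1.77% and 1.76%. Glia-like cells, among the highest for the mitochondrial genome, had only 1.14% and 1.13%. The ratio of mitochondrial-genome to nuclear UMIs was 7.99 and 7.69 in glia-like, 7.18 and 7.26 in endothelium-like, 5.50 and 5.42 in mesenchyme-like, 4.19 and 4.96 in epithelium-like and 3.72 and 3.97 in osteoclast-like cells. Depth differed between classes, from median UMIs of 9739 and 7199 (osteoclast-like) to 1649 and 1326 (neutrophil-like). Macrophage-like cells were the next deepest class, at 8720.5 and 5943 UMIs, and had 1.46% and 1.37% of nuclear members.

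**Figure D1:**
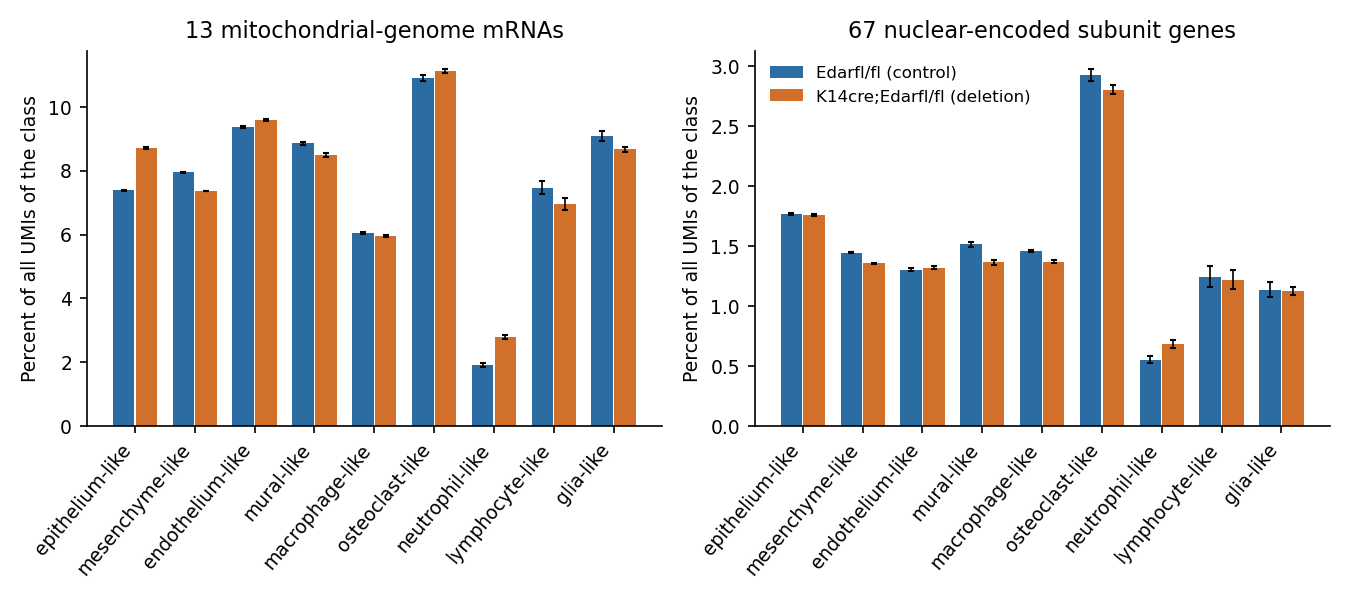
Bars give the percent of all UMIs of each cell class from the 13 mitochondrial-genome mRNAs (left) and the 67 nuclear members (right), with 1 bar for each library and 95% exact counting intervals. Osteoclast-like cells are highest and neutrophil-like cells lowest in both panels, and the epithelium-like bars differ between libraries on the left (7.40% and 8.71%) but not on the right (1.77% and 1.76%).

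The high level in osteoclast-like cells was spread over most nuclear members. Of 67, 54 had their highest CPM there in both libraries, and 44 had their lowest in neutrophil-like cells in both. The share of all genes with these same extremes is not given here, so the counts have no background beside them. The classes were small, with 44 and 110 osteoclast-like and 137 and 135 neutrophil-like cells. Relative to mesenchyme-like cells, complex II was 3.21 and 3.33 times as high in osteoclast-like cells, complex III 2.51 and 2.64 times, complex V 1.99 and 2.02 times and nuclear complex I 1.81 and 1.83 times. The mitochondrial-genome mRNAs of complex I were 1.16 and 1.26 times as high and those of complex IV 1.58 and 1.73 times. Complex II, which has no mitochondrial-genome subunit, therefore had the widest difference of the nuclear groups in both libraries.

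Each of the 4 complex II genes had its highest level in osteoclast-like cells. Sdha, the catalytic flavoprotein, stood at 384 and 406 CPM there, against 86.4 and 89.1 CPM in mesenchyme-like cells. Sdhb, the iron-sulfur subunit that hands electrons onward, had 246 and 210 CPM against 75.1 and 60.2 CPM. Sdhc and Sdhd, which anchor the complex in the membrane and bind ubiquinone, had 310 and 300 CPM and 289 and 244 CPM against 121 and 120 CPM and 99.6 and 79.7 CPM.

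The 8 nuclear members with the widest range over classes included 4 of complex III. Uqcrc1 and Uqcrc2, the core proteins of complex III, ran from 28.8 and 43.4 CPM to 234 and 311 CPM and from 68.4 and 67.04 CPM to 484 and 477 CPM from neutrophil-like to osteoclast-like cells. Uqcr11, a small complex III subunit, ran from 50.4 and 118 CPM to 838 and 962 CPM. These low ends rest on 8 to 30 UMIs. Uqcr10, another small complex III subunit, and Atp5b, the catalytic beta subunit of ATP synthase, were also highest in osteoclast-like cells, at 231 and 256 CPM and at 766 and 886 CPM. Only 4 nuclear members had another class on top in both libraries. Of the 13 mitochondrial-genome mRNAs, 5 were highest in osteoclast-like cells in both libraries and 5 in another class, with mt-Co3 in endothelium-like, mt-Nd5 and mt-Nd6 in mural-like, and mt-Nd2 and mt-Nd4 in glia-like cells. The place of mt-Nd6 rests on few UMIs, at 23.5 and 24.5 CPM in mural-like cells. Atp5e, the epsilon subunit of ATP synthase, and Ndufa2, an accessory subunit of complex I, were highest in epithelium-like cells, with 654 and 702 CPM and with 512 and 486 CPM. Ndufa8, a complex I accessory subunit, was highest in endothelium-like cells with 102 and 81.9 CPM, and the fourth was Ndufa4l2.

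Mural-like cells differed from all other classes in the pair Ndufa4 and Ndufa4l2. Ndufa4 was first assigned to complex I and is now known as a subunit of cytochrome c oxidase, and Ndufa4l2 is its hypoxia-inducible paralog. By name, both stayed in the complex I sums here. Ndufa4 (chromosome 6, 11900292 to 11907497, minus strand, mm10) stood at 32.5 CPM (43 UMIs, interval 23.5 to 43.8) in control and 40.8 CPM (40 UMIs, 29.2 to 55.6) in deletion mural-like cells. In epithelium-like cells it had 369 and 377 CPM, in mesenchyme-like cells 281 and 254 CPM, and in osteoclast-like cells 582 and 505 CPM. Neutrophil-like cells were the next lowest with 72.0 and 82.8 CPM. Mural-like cells were thus the lowest class in both libraries, although their total of nuclear members, 1.51% and 1.37%, was close to that of mesenchyme-like cells.

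Ndufa4l2 (chromosome 10, 127514967 to 127517154, plus strand) showed the opposite order. It had 377 CPM (498 UMIs) and 334 CPM (327 UMIs) in mural-like cells, 34.2 and 20.7 CPM in mesenchyme-like, 31.5 and 27.8 CPM in epithelium-like and 13.4 and 20.3 CPM in endothelium-like cells. Macrophage-like cells had 2 and 3 UMIs in all. Of the UMIs of both genes, Ndufa4l2 made up 92.1% (89.4% to 94.2%) and 89.1% (85.5% to 92.1%) in mural-like cells, and between 0% and 10.8% in the other classes. Cells with an Ndufa4l2 UMI were 63.3% and 54.4% of mural-like cells (median depths 2946 and 2464 UMIs), against 0.355% and 0.381% of the deeper macrophage-like cells (8720.5 and 5943 UMIs). After thinning each cell to 1900 UMIs they were 48.4% and 45.9% against 0.189% and 0.204%. Cells with an Ndufa4 UMI were 8.22% and 9.40% of mural-like and 65.1% and 59.3% of epithelium-like cells, or 3.53% and 9.02% against 45.6% and 46.5% after thinning. Thinning left out 82 and 96 mural-like, 34 and 36 macrophage-like and 259 and 350 epithelium-like cells that were shallower. In the control, 213 mural-like cells held only Ndufa4l2, 12 only Ndufa4, 18 both and 122 neither. In the deletion library these numbers were 172, 14, 19 and 146.

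**Figure D2:**
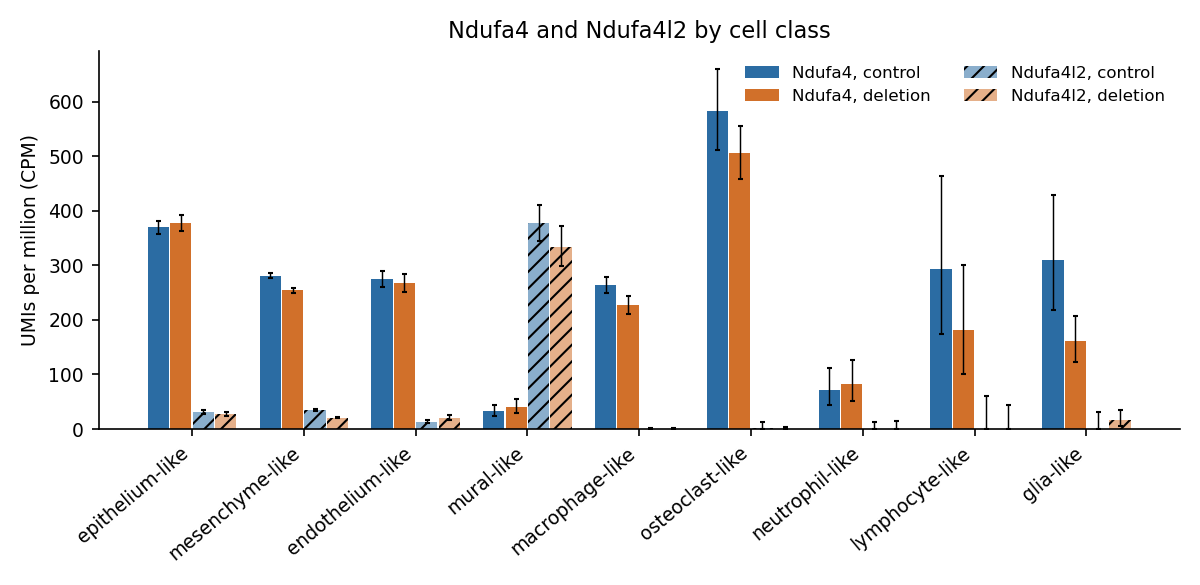
Bars give the CPM of Ndufa4 (plain) and Ndufa4l2 (hatched) in each cell class and library, with 95% exact Poisson intervals. Ndufa4 is lowest in mural-like cells (32.5 and 40.8 CPM), where Ndufa4l2 is highest (377 and 334 CPM).

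Smaller sites of Ndufa4l2 lay within the large classes. Stratum intermedium-like cells, the epithelial layer beside the ameloblasts, had 132 and 108 CPM, and both odontoblast-like sub-clusters had 65 to 98 CPM. Ndufa4 remained the higher of the pair in these, at 238 and 237 CPM and at 244 to 335 CPM. Cox4i2, the hypoxia-responsive isoform of cytochrome c oxidase subunit 4, was 17.6% and 18.3% of Cox4i1 and Cox4i2 UMIs in mural-like cells and 26.1% and 19.8% in mesenchyme-like cells. In epithelium-like, endothelium-like and macrophage-like cells it was 1.13% to 2.50%.

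The c ring of ATP synthase is built from 1 mature protein that 3 genes, Atp5g1, Atp5g2 and Atp5g3, encode with different targeting sequences. Their use differed by class. Atp5g3 gave 54.2% and 54.3% of the UMIs of the 3 genes in osteoclast-like cells and 49.8% and 52.3% in mural-like cells, against 36.3% and 36.1% in epithelium-like cells. Atp5g2 gave 52.6% and 53.7% in endothelium-like cells and 27.4% and 28.2% in osteoclast-like cells. Atp5g1 had its largest share, 21.2%, in control mesenchyme-like cells, and 18.4% in the deletion library.

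The second question was how the members differed between genotypes. In epithelium-like cells, where the keratin 14 promoter is active, mitochondrial-genome mRNAs took 7.40% (769032 UMIs) in the control and 8.71% (597931 UMIs) in the deletion library. The log2 ratio of deletion over control was 0.24 (0.23 to 0.24). Nuclear members took 1.77% (183693 UMIs) and 1.76% (120657 UMIs), a log2 ratio of -0.01 (-0.02 to 0.00). With mitochondrial UMIs left out of the total, that ratio was 0.01. In mesenchyme-like cells both groups were lower in the deletion library. The mitochondrial log2 ratio was -0.11 (7.95% and 7.37%) and the nuclear one -0.09 (1.45% and 1.36%). In mesenchyme-like cells with more UMIs the nuclear direction turned, to 0.08 at 6000 to 12000 UMIs and 0.14 at 12000 or more. The mitochondrial direction turned in mesenchyme-like cells with Xist and no Y-linked UMI, to 0.02, while the nuclear ratio there was -0.09. The ratio of mitochondrial-genome to nuclear UMIs differed between libraries by 0.24 on the log2 scale in epithelium-like cells and by -0.02 in mesenchyme-like cells. The epithelial gap was not the only one of its size. In neutrophil-like cells (137 and 135) the gap was 0.25. Their mitochondrial ratio was 0.55 (0.50 to 0.60) and their nuclear ratio 0.30 (0.20 to 0.40). That mitochondrial ratio was the largest of the 9 classes. What lies behind the gap in either class was not tested. In the other 6 classes the mitochondrial ratio lay between -0.10 (lymphocyte-like) and 0.03 (endothelium-like).

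All of the 12 mitochondrial-genome mRNAs with at least 50 CPM were higher in deletion epithelium-like cells, each with a count interval above 1. Of all 3552 genes with at least 50 CPM, 12.0% had such an interval and 30.4% had one below 1. The median log2 ratio was 0.24 for the 12 mRNAs and -0.06 for all these genes. Of 78 cytosolic ribosomal protein genes, 46 lay above and 12 below, with a median of 0.05. The 12 lie on 1 strand of 1 small genome and are not independent of each other. mt-Co1, the catalytic subunit of cytochrome c oxidase, had 11698 and 14889 CPM, a log2 ratio of 0.35. mt-Nd4l, mt-Atp8, mt-Atp6 and mt-Nd5 had ratios of 0.40, 0.39, 0.31 and 0.29. The split of reads between mt-Nd4l or mt-Atp8 and its overlapping partner depends on the counting. mt-Nd4l was only 0.444% and 0.499% of mitochondrial UMIs, and mt-Atp8 0.081% and 0.092%. mt-Cytb, the complex III core protein, had the smallest, 0.12 (11107 and 12098 CPM). mt-Co2 and mt-Nd2 had 0.24, mt-Nd4 had 0.20, mt-Co3 had 0.18, and mt-Nd1 and mt-Nd3 had 0.17. mt-Nd6, on the other strand, had too few counts for the 50 CPM floor, with 15.1 and 19.97 CPM.

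Nuclear members in epithelium-like cells split in direction. Of 60 with at least 50 CPM, 9 had a count interval above 1 and 12 below 1, beside 12.0% and 30.4% of all genes. Their median log2 ratio was -0.03. No member of either genome passed the 2-fold rule, which asks for at least 50 CPM in 1 library, a 2-fold difference of CPM + 5 and a count interval that excludes 1. Of all genes, 0.169% passed it as higher and 0.0845% as lower. Log2 ratios of single genes are on the scale of CPM + 5.

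The lowest ratios in epithelium-like cells belonged to Ndufa8 (64.7 and 47.8 CPM, -0.40), Sdhd (80.9 and 63.0 CPM, -0.34), Atp5j2, the f subunit in the membrane part of ATP synthase (179 and 148 CPM, -0.27), and Sdhb (90.1 and 78.3 CPM, -0.19). Their count intervals lay below 1. Ndufa5, a complex I accessory subunit, came next at -0.12 with an interval that included 1. The highest ratios belonged to Uqcr11 (409 and 496 CPM, 0.28), Ndufb7 and Atp5k (both 0.16), Ndufa7 (0.12) and Atp5e (0.10). Of these, Ndufb7 and Ndufa7 are accessory subunits of complex I, and Atp5k is the e subunit of ATP synthase. By complex, the nuclear log2 ratio was -0.14 for complex II, 0.01 for complex III, and -0.01 for complexes I and V. The mitochondrial-genome ratio was 0.20 for complex I, 0.12 for complex III, 0.28 for complex IV and 0.31 for complex V.

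In mesenchyme-like cells, 10 of 12 mitochondrial-genome mRNAs had a count interval below 1 and 1, mt-Atp6, had one above 1. Of 60 nuclear members, 43 (71.7%) lay below and 7 (11.7%) above. Among 3465 genes with at least 50 CPM, 29.4% lay below and 54.5% above. The median log2 ratios were -0.13 for the mitochondrial and -0.08 for the nuclear members, beside 0.08 for all genes. Again no member passed the 2-fold rule, beside 0.26% of genes as higher and 0.231% as lower. mt-Co3 had the lowest mitochondrial ratio, -0.20 (4705 and 4104 CPM), and mt-Atp6 had 0.01 (11208 and 11270 CPM).

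The nuclear members with the lowest ratios in mesenchyme-like cells were Ndufa1 (450 and 349 CPM, -0.36), Atp5g1 (379 and 297 CPM, -0.34), and Sdhd, Ndufa8 and Uqcrq, a small complex III subunit, which had -0.30 each. Atp5k (433 and 471 CPM) was highest at 0.12, followed by Ndufb2, Ndufa6 and Ndufb7 at 0.08 and Uqcrc1 at 0.06. Ndufa1 and Ndufb11, complex I subunits, are the 2 X-linked members. Ndufb11 had 252 and 230 CPM, a ratio of -0.12, and in epithelium-like cells Ndufa1 had -0.03 and Ndufb11 -0.06.

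**Figure D3:**
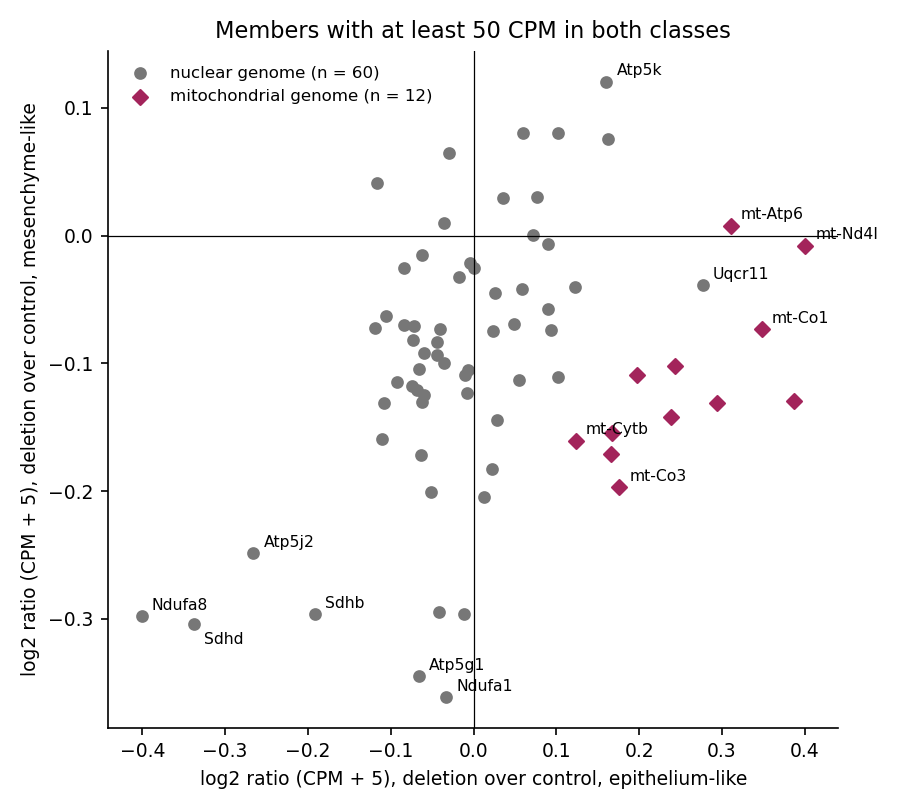
Each point is a member with at least 50 CPM in both classes, placed by its log2 ratio of CPM + 5, deletion over control, in epithelium-like (x) and mesenchyme-like (y) cells. The 12 mitochondrial-genome mRNAs lie to the right of 0 on the x axis (0.12 to 0.40), and Ndufa8, Sdhd, Sdhb and Atp5j2 are low on both axes.

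Some single members had other mesenchymal ratios when sub-clusters were weighted equally. Odontoblast-like sub-cluster 7, led by Dspp and Dmp1, held 1098 control and 427 deletion cells. Ndufa1 was at 850 and 918 CPM there, and Atp5g1 at 589 and 646 CPM, above their class means. With all 13 mesenchyme-like sub-clusters given equal weight, the log2 ratio of Ndufa1 was 0.03 instead of -0.36, that of Atp5g1 -0.05 instead of -0.34, and that of Ndufa4l2 0.06 instead of -0.61. Sdhd, by contrast, stayed at -0.30. Leaving out both odontoblast-like sub-clusters gave summed ratios of -0.11 (mitochondrial) and -0.10 (nuclear), near the -0.11 and -0.09 of all mesenchyme-like cells. The summed ratios at equal weights were smaller in size, -0.046 for the mitochondrial and -0.019 for the nuclear members. Equal weights gave 10 of 12 mitochondrial and 42 of 60 nuclear members a negative ratio, with medians of -0.05 and -0.04 beside 0.00 for all genes.

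The complex II genes Sdhd and Sdhb and the complex I gene Ndufa8 kept 1 direction across most sub-clusters. Sdhd was lower in the deletion library in 13 of 13 mesenchyme-like and 10 of 11 epithelium-like sub-clusters, with a count interval below 1 in 8 and 1 of them. Ndufa8 was lower in 13 of 13 and 11 of 11, and Sdhb in 13 of 13 and 8 of 11. Sdha, in the same complex, had a pooled mesenchymal ratio of 0.04 and -0.14 at equal weights, and Sdhc had -0.02 pooled. Uqcr11 went the other way, higher in 8 of 9 classes, with mesenchyme-like cells the exception at -0.04. At equal weights it was 0.21 there and higher in 12 of 13 sub-clusters. These genes were picked by their pooled ratios from the same cells and 2 libraries, so the sub-clusters are not a second test of them. Their sub-cluster counts have no share of all genes beside them, and count intervals by sub-cluster are given for Sdhd alone.

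Epithelium-like cells divided into 11 sub-clusters, and mitochondrial-genome mRNAs were higher in the deletion library, with an interval above 0, in 9 of them. The ratio was widest in ameloblast-like cells, which carry Amelx and Enam, with 5.26% and 6.67% of UMIs and a log2 ratio of 0.34. Stratum intermedium-like cells had 7.74% and 9.497% (0.30), and inner enamel epithelium-like cells, the ameloblast precursors, 7.38% and 7.78% (0.07). Enamel knot-like cells, named from markers of that signalling centre and with Edar as a leading gene, had 10.0% and 9.87% (-0.02). This name is uncertain. In the run at Leiden resolution 2, the cluster so named scored 0.393 for enamel knot and 0.382 for inner enamel epithelium. Oral keratinocyte-like cells had the highest shares, 10.6% and 11.8%. Nuclear members were lower in the deletion library in 7 sub-clusters and higher in 3. At equal weights the 12 mitochondrial mRNAs were all positive, with a median of 0.18, and 48 of 60 nuclear members were negative, with a median of -0.10 beside -0.03 for all genes. Of 13 mesenchyme-like sub-clusters, the mitochondrial share was lower with its interval in 9 and higher in 2, between -0.29 and 0.17. The nuclear share was lower with its interval in 6 and higher in 3, with 4 that included 0. Its log2 ratios lay between -0.14 and 0.13, with a median of -0.02.

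**Figure D4:**
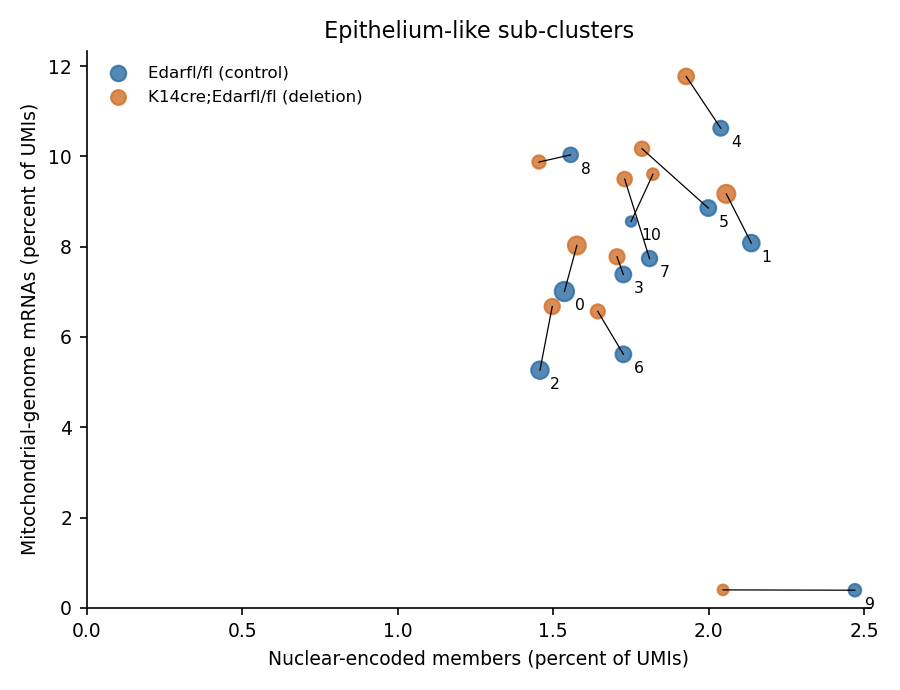
Each pair of joined points is 1 of 11 epithelium-like sub-clusters, numbered, placed by the percent of UMIs from nuclear members (x) and from mitochondrial-genome mRNAs (y), with larger points for more cells. Sub-cluster 9 lies apart near 0.4% on the y axis with 2.47% and 2.05% on the x axis, while sub-cluster 2, ameloblast-like, moves from 5.26% to 6.67%.

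Single cells showed the same shift as the sums. The median share of mitochondrial-genome mRNAs per epithelium-like cell was 6.94% (control) and 8.48% (deletion), and per mesenchyme-like cell 7.56% and 6.79%. The middle 50% of epithelium-like cells ran from 4.46% to 10.1% and from 5.75% to 11.7%, so the libraries overlapped widely. The difference varied with depth. Over bins of 500 to 1500, to 3000, to 6000, to 12000 and 12000 or more UMIs, the log2 ratio of the epithelial mitochondrial share was 0.29, 0.10, 0.32, 0.15 and 0.03, the last with 43 and 17 cells. In mesenchyme-like cells it was 0.16, -0.21, -0.23, -0.02 and -0.03. The lowest mesenchymal bin held far fewer cells than the next, which had 1398 and 4071. Neither class changed in 1 direction along the bins in this share. The nuclear log2 ratio in mesenchyme-like cells was -0.08, -0.04, -0.05, 0.08 and 0.14 over the same bins. In epithelium-like cells it was -0.26, -0.03, 0.05, 0.07 and 0.06. The difference in the mitochondrial share also varied with sex. Among cells with Xist and no Y-linked UMI, epithelium-like cells had 7.70% and 8.91% and mesenchyme-like cells 7.81% and 7.95%, which is the reverse of the pooled mesenchymal direction. Among cells with Y-linked UMIs and no Xist the shares were 7.10% and 7.97%, and 7.82% and 6.67%.

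**Figure D5:**
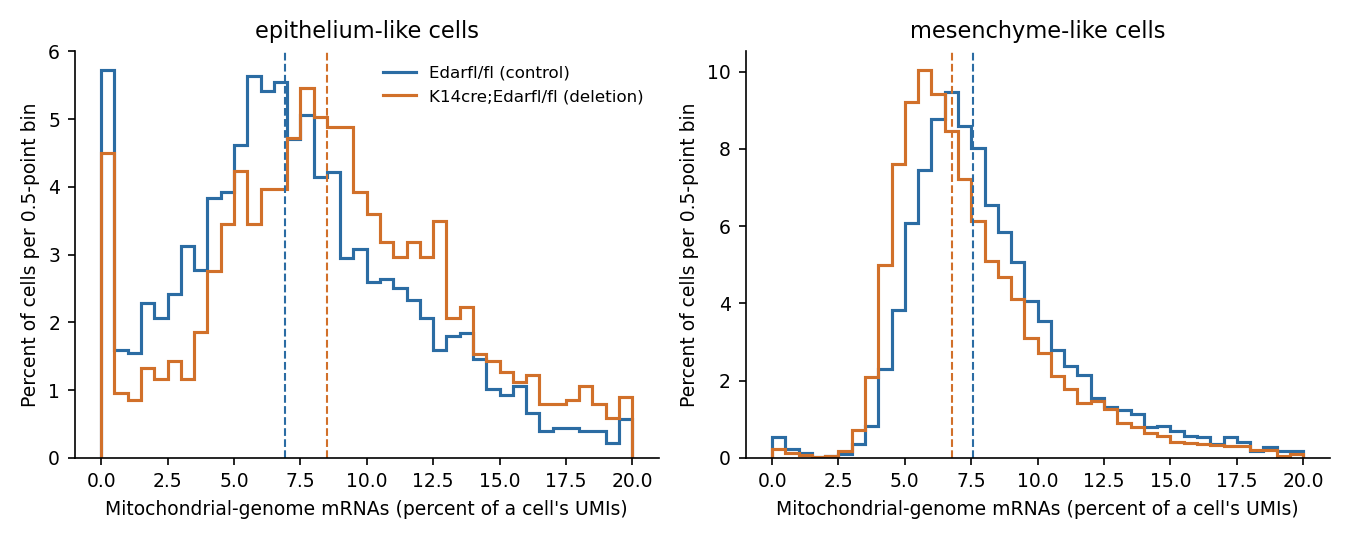
Lines give the percent of epithelium-like (left) and mesenchyme-like (right) cells in each 0.5-point bin of the share of mitochondrial-genome mRNAs per cell, with dashed lines at the medians (6.94% and 8.48%, 7.56% and 6.79%). Epithelium-like cells of both libraries have a second peak near 0.

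A minority of epithelium-like cells had almost no mitochondrial-genome mRNA, while nuclear members were still counted in them. Cells under 1% numbered 166 of 2272 (7.31%) in the control and 103 of 1887 (5.46%) in the deletion library, against 66 of 8479 (0.778%) and 40 of 10994 (0.364%) among mesenchyme-like cells. This 1% line was set after the values were seen. Near it, 36 and 18 epithelium-like cells lay between 0.5% and 1%, and 35 and 16 between 1% and 1.5%. Below 0.25% lay 96 and 53 cells, whose median nuclear-member share was 2.17% and 1.86%, against 1.67% and 1.66% in cells from 8% to 20%. These totals include mitochondrial UMIs, so a cell with almost none has a higher nuclear share by construction. Those cells were shallow, with medians of 1814 and 1325 UMIs. Malat1, a nuclear-retained RNA, was detected in 37.5% and 49.1% of them, against 95.1% and 94.7% of the cells from 8% to 20%.

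Epithelium-like sub-cluster 9 held 78 of the 166 (47.0%) and 38 of the 103 (36.9%) low-share cells. The others were spread over 8 and 9 further sub-clusters, with 12.7% and 24.3% in sub-cluster 1, led by Pclaf. Sub-cluster 9 (83 and 44 cells, median 1332 UMIs over both libraries) could not be named from markers and was led by Mindy4, Ywhah and Ucp2. Its mitochondrial-genome share was 0.390% and 0.397%, and its nuclear-member share 2.47% and 2.05%. Cells under 1% were compared with epithelium-like cells of at least 4%, with mitochondrial UMIs left out of the total. Of 61 nuclear members, 12 were higher and 9 lower by their count intervals among control cells, and 4 and 13 among deletion cells. The median log2 ratio of the nuclear members was 0.03 (control) and -0.15 (deletion), so on this scale the direction differed between libraries. Of all 857 genes compared, 335 and 251, and 299 and 224, did so. The summed epithelial markers were 4946 and 3815 CPM in cells under 1%, against 4943 and 4431 CPM. Mural markers were 507 and 216 CPM, against 138 and 108 CPM, with 5 and 6 of the 10 at 0 in the cells under 1%, and the part of these markers in the low share was not tested. Among the genes furthest apart, Ucp2, an inner-membrane carrier of mitochondria, had 1546 and 1133 CPM against 549 and 430 CPM, and App had 62.8 and 63.2 CPM against 308 and 311 CPM. Without the cells under 1%, the epithelial log2 ratio of mitochondrial-genome mRNAs was 0.22, near the 0.24 of all cells.

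The makeup of the mitochondrial-genome pool itself also differed by class. mt-Co1 was 31.7% and 27.2% of mitochondrial UMIs in neutrophil-like cells and 15.8% and 17.1% in epithelium-like cells, the highest and the lowest classes. Across libraries, the share of mt-Atp6 was higher in the deletion library in 9 of 9 classes, in 8 with intervals that did not overlap. The share of mt-Co3, the next gene on the same strand, was lower in 9 of 9, in 5 without overlap. The share of mt-Nd1 was also lower without overlap in 5 classes, and higher in 1. These are shares of 1 total, so a higher share of 1 mRNA lowers others by construction. In epithelium-like cells mt-Atp6 was 17.0% and 17.9%.

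In neutrophil-like cells all 11 mitochondrial-genome mRNAs with at least 50 CPM were higher in the deletion library, 9 with a count interval above 1. Of all 3405 genes with at least 50 CPM there, 12.3% had such an interval and 9.25% had one below 1. The median ratio was 0.61 for the 11 mRNAs and 0.02 for all genes. The rise was not particular to them. Of 78 cytosolic ribosomal protein genes in neutrophil-like cells, 62 lay above and 0 below, with a median of 0.60. Their share of UMIs was 3.30% and 4.98%. In the remaining classes few members passed the 2-fold rule. None did in endothelium-like (0.272% of all genes), mural-like (0.613%), macrophage-like (0.175%) or osteoclast-like cells (1.97%). In neutrophil-like cells, 4 members were higher in the deletion library, mt-Nd2 (421 and 852 CPM, 1.01), Ndufc1 (5 and 17 UMIs, 1.65), Uqcr11 (14 and 30 UMIs, 1.15) and Uqcrb (22 and 43 UMIs, 1.05), beside 9.87% of all genes. Of 58 nuclear members tested in lymphocyte-like cells (23 and 36 cells), Ndufb2 was lower with 5 UMIs and 0, and the exact upper limit of the latter was 44.7 CPM. The background there was 5.41%. In glia-like cells (38 and 108 cells), Ndufv3 (4 and 39 UMIs, 1.45) and Ndufv2 (9 and 73 UMIs, 1.26), parts of the NADH-oxidizing module of complex I, were higher, beside 11.5% of genes. These shares are at or below the background of each class.

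Other genes of the pathway were read from fixed lists. Of 12 nuclear Cox genes with at least 50 CPM in epithelium-like cells, 1 lay above and 3 below by count interval, with a median of -0.03. In mesenchyme-like cells 10 of 13 lay below and none above, with a median of -0.17. These counts, and those of the lists that follow, stand beside 12.0% above and 30.4% below over all genes in epithelium-like cells and 54.5% and 29.4% in mesenchyme-like cells. Lists such as the tricarboxylic acid cycle genes in epithelium-like cells are near that background. Cox6a1, a subunit isoform, was the epithelial one above, at 425 and 491 CPM. Glycolysis genes were lower by interval in 9 of 9 in mesenchyme-like cells (median -0.15), and in epithelium-like cells 2 of 10 lay above and 4 below. Mitochondrial ribosomal proteins had 1 above and 6 below of 26 in epithelium-like cells, and 5 above and 9 below of 18 in mesenchyme-like cells. Tricarboxylic acid cycle genes had 0 above and 3 below of 10, and 2 above and 4 below of 10. Of regulators of mitochondrial biogenesis, Sirt1, Yy1 and Myc were above in mesenchyme-like cells (0.73, 0.40 and 0.89), and Myc in epithelium-like cells (0.29). Mitochondrial stress genes had 3 above and none below of 6, and 3 above and 2 below of 5. For mitochondrial RNA handling these numbers were 0 and 3 of 5, and 0 and 1 of 2. For mitochondrial DNA upkeep the 1 gene tested in each class had an interval that included 1. Assembly factors had none of 3 outside 1 in epithelium-like cells and 2 of 2 below in mesenchyme-like cells. In the smaller classes, list genes past the 2-fold rule were Cox7a2 (1.02), Cs (1.23), Hspe1 (1.39) and Asns (1.72) in neutrophil-like cells, Ddit3 in lymphocyte-like cells, and Sirt1 (-1.09) and Aldoa (1.10) in glia-like cells.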

How the data were processed

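Single-cell RNA was measured in 1 library per genotype. The deposited values are whole-number UMI counts per gene and barcode, not normalized, made by the authors with STARsolo on mm10, per the submitters' processing notes. For STARsolo, no version, annotation or strand setting is stated in the sources used here. The libraries held 13990 and 16029 barcodes with 73375441 and 62158879 UMIs. They shared 4 barcodes.

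Barcodes with at least 500 genes and at most 20% mitochondrial UMIs were kept, and doublets called by Scrublet (176 and 243) were removed. The 20% cap bounds the measure studied here. Cells were clustered with scanpy 1.11.5 and leidenalg 0.10.2 (2000 variable genes without members, ribosomal protein, haemoglobin or sex-linked genes, 30 components, 15 neighbours, resolution 1, sub-clusters 0.6). Clusters were named by marker score, with at least 3 markers in 10% of cells and a lead of 0.1, a rule set after seeing the data, and 1 cluster of 104 and 116 cells stayed unnamed. UMIs were summed per class and library. Intervals are exact Poisson, Clopper-Pearson or conditional binomial. The size rule used 50 CPM, a pseudocount of 5 CPM and a fold of 2. Its code was tested on simulated data. Positions come from GENCODE M21, in which all 80 members had an identifier. Atp5o is listed under 2 identifiers that overlap, one of them at 0.750 and 1.20 CPM in mesenchyme-like cells.

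Named genes were the 13 mitochondrial mRNAs, complex II, Ndufa4 and Atp5g paralogs, X-linked members, nuclear members past the size rule, the 5 highest and 5 lowest ratios in each main class, the 8 widest class spans, and pathway genes past the rule. Others, such as Cox4i2, Atp5e and the genes of low-share cells, were named after their values were seen. The members and lists were chosen with earlier results of these data known. The values of 1 gene that this rule names are not reported here.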

Additional observations from a re-analysis of the deposited data

Results flagged for a closer look

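The share of mitochondrial-genome mRNAs moved in opposite directions between libraries in the 2 largest tooth classes. The log2 ratio of deletion over control was 0.24 in epithelium-like and -0.11 in mesenchyme-like cells, a gap of 0.35. Among cells with Xist and no Y-linked UMI both ratios were positive, 0.21 and 0.02, and such cells were 17.0% of control and 46.7% of deletion epithelium-like cells. Among cells with Y-linked UMIs and no Xist the ratios were 0.17 and -0.23. With 1 library per genotype this difference was not tested.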

How the results depend on the processing

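No paired analysis was possible because each genotype is 1 library, and no library could be left out. No member passed the 2-fold rule in epithelium-like or mesenchyme-like cells under any alternative run. The epithelial log2 ratio of mitochondrial-genome mRNAs (0.24) stayed positive throughout: 0.23 with at least 1000 genes, with doublets kept, thinned to 1900 UMIs, or without sub-clusters 9 and 10, 0.22 without cells under 1% or with no cap, 0.18 with a cap of 10%, 0.17 at equal sub-cluster weights, 0.26 over UMIs outside the mitochondrial genome and 0.29 as a median over cells. By sex it was 0.21 (Xist only) and 0.17 (Y-linked only). The mesenchymal ratio (-0.11) reversed to 0.025 in Xist-only cells and was -0.23 in Y-only cells. The cause was not tested. It was -0.046 at equal weights, -0.092 with the 10% cap, -0.11 without odontoblast-like sub-clusters, -0.12 at Leiden resolution 2, over non-mitochondrial UMIs, with doublets kept or with no cap, -0.13 with at least 1000 genes, and -0.16 thinned or as a median over cells. The nuclear epithelial ratio (-0.01) was 0.014 over non-mitochondrial UMIs, -0.028 as a median and -0.070 at equal weights. The nuclear mesenchymal ratio (-0.09) was -0.019 at equal weights, -0.12 in Y-only cells or as a median, -0.10 over non-mitochondrial UMIs, with doublets kept, with no cap, at resolution 2 or without odontoblast-like sub-clusters. Leaving out sub-clusters or cells under 1% was chosen after seeing the data. Small classes (44 osteoclast-like, 23 lymphocyte-like and 38 glia-like control cells) limit single genes to wide counting intervals.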
